A study of Mus musculus with 9 samples.

Results

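The mouse genome encodes collagens through a large family of genes, each giving 1 chain of a triple-helical molecule, and 44 of these genes were measured in whole sciatic dorsal root ganglia. They were chosen by symbol alone: of the 45904 identifiers in the table, those whose Ensembl gene carries the letters Col, a type number, the letter a and a chain number. Their levels were given as FPKM, a fragment count divided by gene length and by library size, so that levels of different genes can be set side by side. Of the 44 genes, 34 averaged 0.2 FPKM or more in the 9 libraries and were tested, and 10 lay below that level. The Old SNI group came from C57BL/6 mice of 20 to 22 months after sciatic nerve injury. The Old Sham group came from C57BL/6 mice of the same ages after sham surgery, and the Young Sham group from C57BL/6 mice of 8 to 10 weeks after sham surgery. Ganglia were taken 24 h after surgery, and each of the 3 libraries in a group pooled ganglia of 2 mice. Young mice with nerve injury were not analysed here.

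Collagen chains share a repeat of glycine and a pair of other residues, since only glycine is small enough for the centre of the triple helix. Chains are hydroxylated and folded in the endoplasmic reticulum, secreted, trimmed by proteinases and crosslinked by lysyl oxidases. In nerve and ganglion, fibrillar collagens fill the space between cells, and basement membrane collagens surround Schwann cells, satellite glia and blood vessels. FACIT collagens, which attach to fibrils, and multiplexins, which carry interrupted helices and heparan or chondroitin sulfate chains, link these layers. Transmembrane collagens stay anchored in the membrane of the cell that makes them.

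The helix differs between the chains that the comparisons below turn on, and 16 glycine repeats of each are printed from the longest uninterrupted stretch of its coding sequence in GENCODE M21 (GRCm38), with the glycine codon that opens each repeat in capitals.
Col28a1, coding bases 829 to 972: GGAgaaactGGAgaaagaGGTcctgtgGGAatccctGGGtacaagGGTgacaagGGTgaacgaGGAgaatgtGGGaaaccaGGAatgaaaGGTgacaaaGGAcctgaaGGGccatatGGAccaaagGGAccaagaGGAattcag
Col26a1, coding bases 595 to 738: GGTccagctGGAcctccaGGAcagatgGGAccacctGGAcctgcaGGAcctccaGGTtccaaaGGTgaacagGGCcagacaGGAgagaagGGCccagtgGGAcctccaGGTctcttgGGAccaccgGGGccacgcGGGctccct
Col18a1, coding bases 2116 to 2259: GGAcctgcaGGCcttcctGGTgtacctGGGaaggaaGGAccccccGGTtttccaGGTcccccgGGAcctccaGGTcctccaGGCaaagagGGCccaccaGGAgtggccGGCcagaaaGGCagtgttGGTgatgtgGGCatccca
Col16a1, coding bases 3016 to 3159: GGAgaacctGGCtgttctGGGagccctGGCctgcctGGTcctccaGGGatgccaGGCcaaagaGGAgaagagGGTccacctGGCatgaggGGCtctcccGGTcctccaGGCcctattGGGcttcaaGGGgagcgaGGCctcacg
Col3a1, coding bases 490 to 633: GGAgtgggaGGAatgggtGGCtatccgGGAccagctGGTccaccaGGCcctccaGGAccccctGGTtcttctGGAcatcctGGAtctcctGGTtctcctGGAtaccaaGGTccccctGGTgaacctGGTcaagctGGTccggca
In Col3a1 such repeats ran on for 344 in a row, and over the 11 fibrillar chains the longest run lay between 216 and 344. Col28a1 had 17 separate runs of 5 repeats or more, the longest of 28, and Col16a1 had 21, the longest of 52. Both multiplexins, Col18a1 and Col15a1, had a longest run of 30. Col26a1 had 2 runs, the longest of 23, in a coding sequence of 440 codons. In the 6 type IV chains the longest run held 39 to 66 repeats.

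Several facts of the libraries bear on the comparisons. The neuronal genes Tubb3 and Prph were at 1274 to 1533 and 757 to 849 FPKM in Old SNI libraries, 1385 to 1658 and 817 to 992 FPKM in Old Sham libraries, and 1153 to 1485 and 777 to 999 FPKM in Young Sham libraries, so neuronal transcripts were present throughout. Of 10 sensory neuron markers, limma called 2 lower in Old Sham against Young Sham and 1 lower in Old SNI against Old Sham. In Old SNI against Young Sham 3 were lower, and 0 were higher in any comparison. Isl1 was at 17.8 to 18.03 FPKM in Old SNI, 20.65 to 22.65 FPKM in Old Sham and 26.02 to 28.38 FPKM in Young Sham libraries. The groups differed in sex as well as in age. Xist, which is expressed in females, was at 9.77 to 13.1 FPKM in the 3 Old SNI libraries, at 1.75, 11.3 and 10.2 FPKM in the Old Sham libraries and at 0.0200 FPKM or less in Young Sham libraries. The Y-linked gene Ddx3y was at 0.0133 FPKM or less in Old SNI libraries, at 10.9, 0 and 0 FPKM in the Old Sham libraries and at 13.8 to 15.7 FPKM in Young Sham libraries. Old Sham replicate 1 thus held RNA of both sexes, the other aged pools female and the young pools male RNA, so that age cannot be told apart from sex in any comparison with Young Sham. Summed over 6 markers, myelinating Schwann cell genes were at 1571 to 1830 FPKM in Old SNI, 1802 to 1917 FPKM in Old Sham and 2702 to 3108 FPKM in Young Sham libraries. The sum of 10 fibroblast markers was 420 to 595 FPKM in Old SNI, 443 to 508 FPKM in Old Sham and 403 to 434 FPKM in Young Sham libraries, and Gsn was the 1 of 10 called between the sham groups, against 4.02% of all genes. In whole ganglia, fewer cells of a type and less RNA per cell cannot be told apart.

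The most abundant collagen transcript per length of gene was Col28a1, which encodes a chain with von Willebrand A domains best known from peripheral nerves of mice. It averaged 17.8 ± 0.195 FPKM in Old SNI, 18.1 ± 1.43 FPKM in Old Sham and 26.4 ± 3.88 FPKM in Young Sham ganglia (SD, n = 3 each), and made up 11.7% to 17.1% of the summed collagen FPKM of a library. Col1a2 and Col1a1, the chains of type I collagen, Col3a1, the chain of type III collagen, and Col4a1, a chain of nearly every basement membrane, followed within the first 5, which together held 43.2% to 54.0% of the sum. Col1a2, next after Col28a1, averaged 13.0 ± 2.70 FPKM in Old SNI, 13.8 ± 2.91 FPKM in Old Sham and 17.1 ± 1.88 FPKM in Young Sham ganglia. In the 3 Young Sham libraries Col28a1 was above Col1a2 in each, by 22.1 to 29.7 against 14.9 to 18.2 FPKM. Below them, Col4a1 was above both Col3a1 and Col1a1 within each of the 6 aged libraries, while the order of Col3a1 and Col1a1 differed between these libraries.

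**Figure D1:**
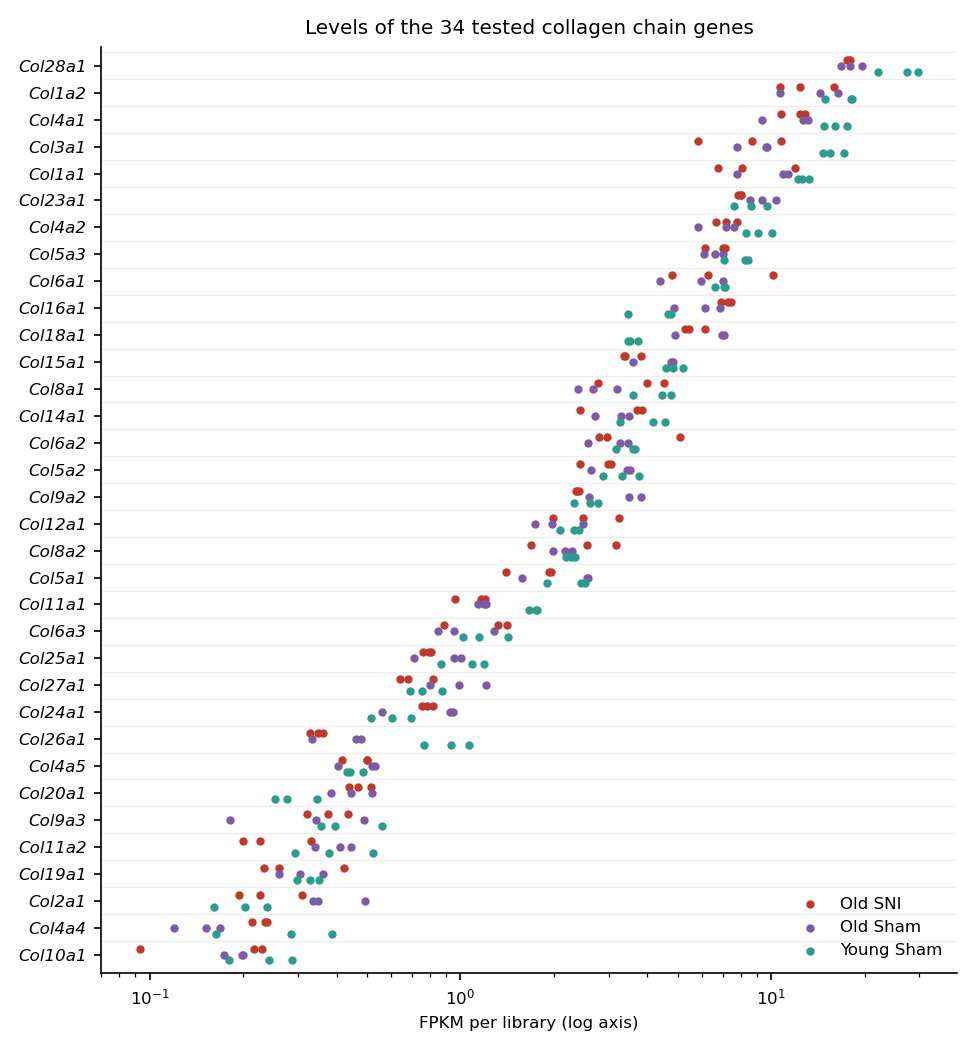
FPKM of the 34 tested collagen chain genes (rows, from the highest mean to the lowest) on a log axis, with 1 point per library and 3 libraries per group. Col28a1 leads and Col10a1 closes the order, and Col18a1 and Col16a1 have their Old SNI and Old Sham points to the right of their Young Sham points.

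Levels spanned 103-fold between the highest and lowest tested mean, and 22 chains had a mean of 1 FPKM or more. Type XXIII, a transmembrane collagen, ranked sixth through Col23a1, at 7.93 ± 0.108 FPKM in Old SNI, 9.42 ± 0.891 FPKM in Old Sham and 8.63 ± 1.07 FPKM in Young Sham ganglia. Col5a3, a type V chain that Schwann cells make, was at 6.74 ± 0.549, 6.56 ± 0.468 and 7.92 ± 0.753 FPKM in Old SNI, Old Sham and Young Sham ganglia. It stood above the common type V chains Col5a2, at 2.43 to 3.75 FPKM, and Col5a1, at 1.40 to 2.57 FPKM, in every library. The filter lay between Col10a1, with a mean of 0.202 FPKM, and Col6a5, with 0.164 FPKM. The 10 chains below it were Col6a5, Col13a1, Col4a3, Col7a1, Col22a1, Col17a1, Col6a4, Col4a6, Col6a6 and Col9a1, none above 0.314 FPKM in any library. The sum of 8 cartilage and bone markers was 3.37 to 3.81 FPKM in Old SNI, 3.68 to 4.81 FPKM in Old Sham and 3.83 to 6.56 FPKM in Young Sham libraries. Of these, Matn1 and Matn3 were at 0 in all libraries, and Sox9, which glia also express, was at 0.935 to 1.16, 0.338 to 0.694 and 0.3301 to 0.433 FPKM in Old SNI, Old Sham and Young Sham libraries. The reads recovered from the steps of the values ranged from 4 to 2918 per library over the tested chains, known up to a common factor per gene, so that the low chains carry a large counting error.

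By structural class, the 11 fibrillar chains made up the largest share of the summed collagen FPKM, 32.7% ± 2.01 in Old SNI, 35.0% ± 0.801 in Old Sham and 37.5% ± 0.917 in Young Sham libraries. Type IV chains of basement membranes held 14.8% ± 0.976, 13.9% ± 0.495 and 15.6% ± 0.647 of it in Old SNI, Old Sham and Young Sham libraries. FACIT chains held 12.3% ± 0.917 in Old SNI, 11.3% ± 0.290 in Old Sham and 8.52% ± 0.324 in Young Sham libraries. The shares of both aged groups lay above those of Young Sham. The summed FACIT level itself was 15.3, 17.4 and 17.3 FPKM in Old SNI, 12.9, 17.1 and 16.9 FPKM in Old Sham and 14.2, 13.7 and 14.8 FPKM in Young Sham libraries, so that Old Sham and Young Sham overlapped. The multiplexins held 6.74% ± 0.536 in Old SNI, 7.68% ± 0.462 in Old Sham and 5.05% ± 0.127 in Young Sham libraries. These shares did not overlap between either aged group and Young Sham, while those of Old SNI and Old Sham did. The summed multiplexin levels overlapped between all groups, at 8.64 to 9.49 FPKM in Old SNI, 8.50 to 11.9 FPKM in Old Sham and 8.05 to 8.73 FPKM in Young Sham libraries. The shares are of a total that was lower in the aged groups. Summed over all chains, the level was 119.5, 135.6 and 153.9 FPKM in the Old SNI libraries, 117.7, 152.8 and 145.7 FPKM in the Old Sham libraries, and 173.8, 155.1 and 173.7 FPKM in the Young Sham libraries. Every aged library was below every young one, with an exact two-sided permutation p of 0.1 for each aged group against Young Sham, the smallest that 3 against 3 libraries allow. Libraries of a group differed across many chains at once: 24 of the 34 tested chains were lowest in Old SNI replicate 1 among the Old SNI libraries, 27 in Old Sham replicate 1 among the Old Sham libraries and 22 in Young Sham replicate 2 among the Young Sham libraries.

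The comparison of Old Sham with Young Sham ganglia asked what differs with age, and here with sex, in the absence of nerve injury. By limma, with an adjusted p under 0.05 over all 17601 genes tested, 3 of 34 chains were called, against 4.02% of all genes. Col18a1 rose, and Col28a1 and Col26a1 fell. The 1 chain that rose is 2.94% of those tested, against 2.53% of all genes, and the 2 that fell are 5.88%, against 1.49%. At an unadjusted p under 0.05 there were 12 chains, 35.3% against 26.3% of all genes. Values of the groups did not overlap for 13 chains, 38.2% of those tested, against 29.2% of all genes. Of these, 9 were lower, or 26.5% against 11.5% of all genes, and 4 were higher, or 11.8% against 17.7% of all genes. The log2 change was below 0 for 24 of 34 chains, 70.6% against 43.1% of all genes, and its median was -0.18 over the chains and 0.05 over all genes.

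Col18a1 (chromosome 10, 77052178 to 77166548, minus strand) encodes the chain of type XVIII collagen, a basement membrane proteoglycan from which endostatin is released. It was at 4.90, 6.93 and 7.03 FPKM in the Old Sham libraries, against 3.51, 3.47 and 3.74 FPKM in the Young Sham libraries. Every Old Sham library was above every Young Sham library, and Old Sham replicate 1, the pool of both sexes, was the lowest of its group. The gene rose 1.72-fold, by 0.78 on the log2(FPKM + 0.1) scale (SE 0.134, limma adjusted p = 0.0287). Without Old Sham replicate 1 the log2 change was 0.95 (limma adjusted p = 0.00539). When each of the 9 libraries was left out in turn, Col18a1 was called without Old SNI replicate 2, without Old Sham replicate 1 and without Young Sham replicate 2. In the other 6 it was not, and the log2 change was 0.69 or more in all 9.

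Col28a1 (chromosome 6, 7997808 to 8192617, minus strand) was at 16.7, 19.6 and 18.0 FPKM in the Old Sham libraries, against 27.4, 22.1 and 29.7 FPKM in the Young Sham libraries. The groups did not overlap, and the young libraries were spread more widely. The gene fell 1.45-fold, by 0.53 on the log2 scale (SE 0.104, limma adjusted p = 0.0360). The call was kept in 1 of the 9 fits with 1 library left out, that without Young Sham replicate 2, and the log2 change lay between -0.66 and -0.44 in these fits. Without Old Sham replicate 1 it was -0.48 (limma adjusted p = 0.0645). Among 6 myelinating Schwann cell markers, limma called 2 lower and did not call 4, while 1.49% of all genes were called lower. Pmp22, which encodes a myelin membrane protein, was 1 of the 2 (log2 change -0.63, limma adjusted p = 0.00966). It was at 590.0 to 622 FPKM in Old Sham and 879 to 1019 FPKM in Young Sham libraries. Non-myelinating Schwann cell markers, 5 in number, had 0 called. Their sum was 345 to 386 FPKM in Old Sham and 283 to 342 FPKM in Young Sham libraries. The part of Schwann cell RNA in the fall of Col28a1 was not tested.

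Col26a1 (chromosome 5, 136741759 to 136883209, minus strand), a short secreted collagen first described in testis and ovary of mice, was a low gene with 24 to 82 recovered reads per library. It was at 0.332, 0.460 and 0.478 FPKM in the Old Sham libraries, against 1.06, 0.936 and 0.767 FPKM in the Young Sham libraries. Values of the 2 groups did not overlap. It fell 1.95-fold, an underestimate for so low a gene because of the added 0.1 FPKM (log2 change -0.97, SE 0.222, limma adjusted p = 0.0471). It was called in none of the 9 fits with 1 library left out, with -0.83 and a limma adjusted p of 0.0721 without Old Sham replicate 1.

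Among the fibrillar chains, Col3a1 and Col11a1 came nearest to the threshold. Col3a1, whose chains form type III collagen in thin fibrils beside type I, was at 7.79, 9.70 and 9.65 FPKM in the Old Sham libraries, against 15.4, 14.6 and 17.2 FPKM in the Young Sham libraries. The groups did not overlap, yet the log2 change of -0.80 (SE 0.194) had a limma adjusted p of 0.0528. Without Old SNI replicate 1, which is no part of this contrast but of the shared estimate of the spread, the same change was called (limma adjusted p = 0.0364). Col11a1, a minor chain that sits inside fibrils and limits their width, was at 1.19, 1.21 and 1.14 FPKM in Old Sham and 1.75, 1.66 and 1.76 FPKM in Young Sham libraries (log2 change -0.51, limma adjusted p = 0.0535). Of the type I chains, Col1a1 was lower in every Old Sham library than in any Young Sham library and Col1a2 was not, with log2 changes of -0.35 and -0.32 and limma adjusted p of 0.294 and 0.286. None of the 11 fibrillar chains was called, 7 had a log2 change below 0, and the range ran from -0.80 for Col3a1 to 0.71 for Col2a1.

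The type IV chains Col4a1 and Col4a2, which join into the common network of basement membranes, were lower in every Old Sham library than in any Young Sham library and missed the threshold. Col4a1 was at 9.37, 13.1 and 12.7 FPKM in Old Sham and 17.5, 14.8 and 16.1 FPKM in Young Sham libraries (log2 change -0.47, limma adjusted p = 0.0695). Col4a2 had a log2 change of -0.42 (limma adjusted p = 0.0668). With the medians of the libraries made equal, Col3a1, Col11a1, Col4a1 and Col4a2 were called lower as well, which gave 1 chain higher and 6 lower in place of 1 and 2. Of the type VI chains, whose beaded filaments lie around cells, Col6a1 had a log2 change of -0.28, Col6a2 of -0.17 and Col6a3 of -0.21, all with overlapping groups. Col8a1, a short-chain collagen of vessels and of the cornea, was at 2.39 to 3.19 FPKM in Old Sham and 3.61 to 4.75 FPKM in Young Sham libraries (log2 change -0.61, limma adjusted p = 0.0867). Among FACIT chains, Col16a1 had a log2 change of 0.47 (limma adjusted p = 0.0924), and Col14a1, a partner of type I fibrils, of -0.32.

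**Figure D2:**
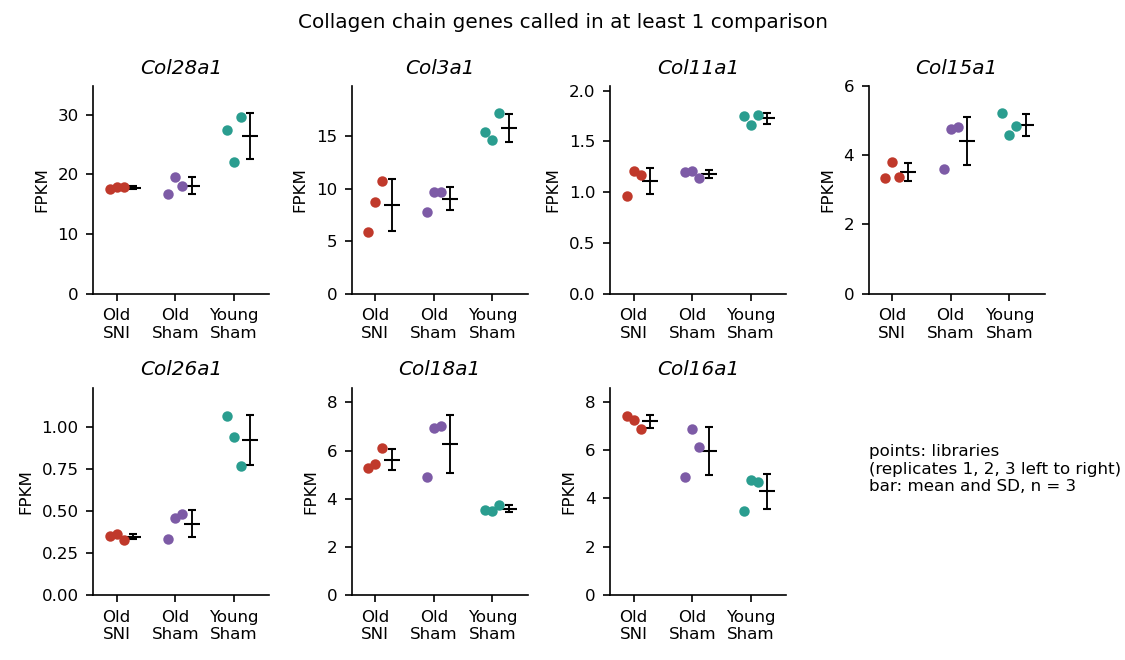
FPKM of the 7 collagen chain genes called in at least 1 comparison, with 1 point per library and the mean and SD (n = 3) beside each group, Old SNI, Old Sham and Young Sham from left to right. Col28a1, Col3a1, Col11a1 and Col26a1 are lower in both aged groups than in Young Sham, Col18a1 is higher in both, and Col16a1 and Col15a1 have their Old Sham points between the outer groups or across them.

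The comparison of Old SNI with Old Sham ganglia asked how aged ganglia differ a day after injury of the nerve. By limma, 0 of 34 chains were called, against 4.11% of all genes. Of all genes, 2.45% were called higher and 1.65% lower. At an unadjusted p under 0.05 there were 3 chains, Col9a2, Col15a1 and Col23a1, which is 8.82% against 19.8% of all genes. With voom on recovered reads 0 were called, against 5.35% of all genes, and 8 had an unadjusted p under 0.05, 23.5% against 20.6% of all genes. Values of the groups did not overlap for 6 chains, 17.6% of those tested, against 25.4% of all genes: Col16a1 and Col4a4 lay higher (5.88% against 11.7%), and Col2a1, Col11a2, Col9a2 and Col23a1 lower (11.8% against 13.7%). The log2 change was below 0 for 20 of 34 chains, 58.8% against 52.0% of all genes, with a median of -0.03 over the chains and -0.01 over all genes. That count was 14 without Old SNI replicate 1 and 24 without Old SNI replicate 3 or without Old Sham replicate 1.

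The smallest p belonged to Col9a2, a FACIT chain known from the surface of cartilage fibrils. It was at 2.36, 2.38 and 2.41 FPKM in the Old SNI libraries, against 2.59, 3.82 and 3.49 FPKM in the Old Sham libraries. The injured libraries lay within 0.05 FPKM of each other and below all sham libraries, of which replicate 1 was the nearest. The log2 change was -0.43 (95% interval -0.75 to -0.12, limma adjusted p = 0.129). Col15a1, the second multiplexin, which lies where basement membranes meet fibrils, was at 3.35, 3.81 and 3.38 FPKM in Old SNI and 3.60, 4.77 and 4.83 FPKM in Old Sham libraries (log2 change -0.31, limma adjusted p = 0.207). Without Old Sham replicate 1, Col9a2 and Col15a1 were both called lower, with log2 changes of -0.60 and -0.44 (limma adjusted p = 0.0303 and 0.0492). Col23a1 was at 7.80 to 7.99 FPKM in Old SNI and 8.57 to 10.3 FPKM in Old Sham libraries (log2 change -0.24, limma adjusted p = 0.221).

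For the chains that differed between the sham groups, the 95% interval of the log2 difference between Old SNI and Old Sham was -0.26 to 0.21 for Col28a1, -0.45 to 0.16 for Col18a1 and -0.72 to 0.28 for Col26a1. The intervals of the major fibrillar chains were wider than those of Col28a1 and Col18a1, though not than that of Col26a1. They were -0.65 to 0.26 for Col1a1 and -0.57 to 0.30 for Col3a1. Of the 11 fibrillar chains, 10 had a log2 change below 0, the lowest -0.52 for Col2a1, and the median was -0.17. Without Old SNI replicate 1 the value for Col3a1 was 0.10. The 3 tested type VI chains lay above 0, at 0.24, 0.17 and 0.21 for Col6a1, Col6a2 and Col6a3, with limma adjusted p from 0.642 to 0.704. Col6a1 was at 4.81, 6.25 and 10.1 FPKM in the Old SNI libraries, against 4.38, 6.999 and 5.94 FPKM in the Old Sham libraries. Old SNI replicate 3 was the highest of all, and without it the log2 change was -0.05 for Col6a1 and -0.09 for Col6a2. In that library the sum of the fibroblast markers reached 595 FPKM, while Old SNI replicates 1 and 2 had 420 and 498 FPKM, 20 of the 34 chains had their highest value of the group, and the part of fibroblast RNA was not tested.

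**Figure D3:**
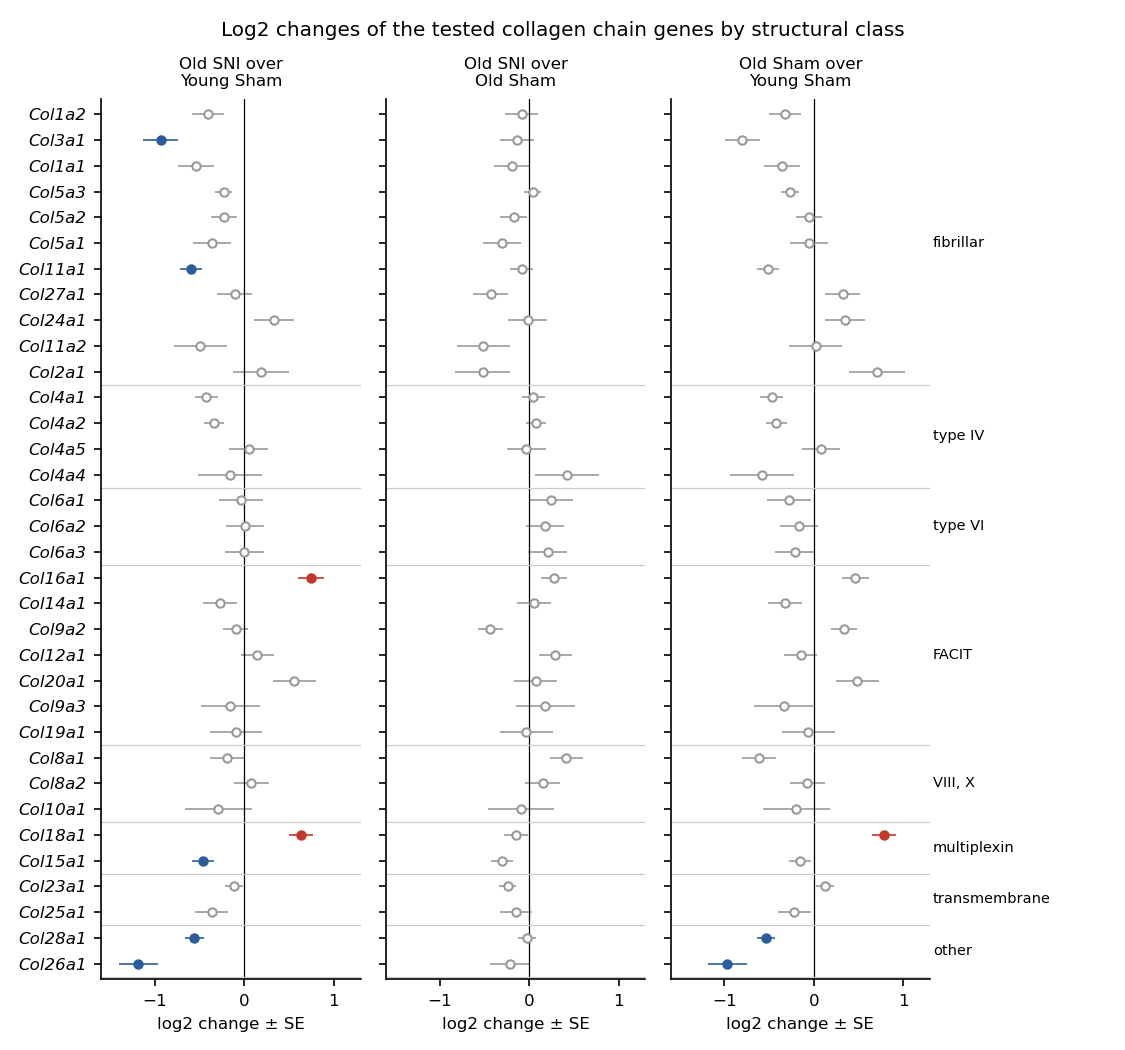
Log2 change and SE of the 34 tested collagen chain genes, grouped by structural class (rows), in the 3 comparisons (panels). Filled points passed an adjusted p of 0.05 (blue lower, red higher), and the counts are 7 for Old SNI over Young Sham, 0 for Old SNI over Old Sham and 3 for Old Sham over Young Sham.

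Old SNI and Young Sham ganglia differ in age, sex and injury at once, and their comparison shares its libraries with both others. By limma, 7 of 34 chains were called, 20.6% against 13.1% of all genes. Of these, 2 rose, 5.88% against 8.20% of all genes, and 5 fell, 14.7% against 4.89% of all genes. At an unadjusted p under 0.05 there were 12, 35.3% against 29.4% of all genes. Values of the groups did not overlap for 13 chains, 38.2% against 35.4% of all genes, 9 of them lower (26.5% against 15.5%) and 4 higher (11.8% against 19.9%). The log2 change was below 0 for 25 of 34 chains, 73.5% against 46.5% of all genes.

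Of the fibrillar chains, Col3a1 and Col11a1 fell and the other 9 were not called. Col3a1 (chromosome 1, 45311538 to 45349706, plus strand) was at 5.84, 8.70 and 10.8 FPKM in the Old SNI libraries, against 15.4, 14.6 and 17.2 FPKM in the Young Sham libraries. The Old SNI libraries were spread widely and still lay below the young ones. It fell 1.91-fold (log2 change -0.93, SE 0.194, limma adjusted p = 0.0162). Col11a1 (chromosome 3, 114030540 to 114220718, plus strand) was at 0.964, 1.20 and 1.16 FPKM in Old SNI libraries and fell 1.51-fold (log2 change -0.60, limma adjusted p = 0.0173). Without Young Sham replicate 1 or without Young Sham replicate 3 neither was called, and Col11a1 was also not called without Old SNI replicate 1.

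The multiplexins moved in opposite directions. Col18a1 was at 5.28, 5.46 and 6.11 FPKM in Old SNI libraries, against 3.51, 3.47 and 3.74 FPKM in Young Sham libraries, and rose 1.55-fold (log2 change 0.64, SE 0.134, limma adjusted p = 0.0172). Col15a1 (chromosome 4, 47208161 to 47313167, plus strand) was at 3.35, 3.81 and 3.38 FPKM in Old SNI libraries, against 5.22, 4.57 and 4.84 FPKM in Young Sham libraries, and fell 1.38-fold (log2 change -0.46, SE 0.122, limma adjusted p = 0.0386). Neither pair of groups overlapped. The call of Col15a1 was kept in 2 of the 9 fits with 1 library left out and that of Col18a1 in 6.

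Col16a1 (chromosome 4, 130047840 to 130099283, plus strand), a FACIT chain found near fibrils and basement membranes, rose. It was at 7.43, 7.25 and 6.88 FPKM in the Old SNI libraries, against 3.46, 4.76 and 4.66 FPKM in the Young Sham libraries. Old Sham libraries, at 4.88, 6.87 and 6.14 FPKM, lay between these groups. The change from Young Sham was 1.67-fold (log2 change 0.74, SE 0.147, limma adjusted p = 0.0136), called in 7 of the 9 fits with 1 library left out. Col28a1 fell 1.47-fold (log2 change -0.56, limma adjusted p = 0.0110) and Col26a1 fell 2.27-fold (log2 change -1.18, limma adjusted p = 0.0114), to 17.6 to 18.0 and 0.329 to 0.362 FPKM in Old SNI libraries. Col26a1 was called in all 9 fits with 1 library left out and Col28a1 in 8.

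For chains that form 1 molecule, the ratio within a library was compared. The ratio of Col1a1 to Col1a2 within a library, both per length, lay between 0.632 and 0.818 in all libraries, and that of Col4a1 to Col4a2 between 1.59 and 1.83. The genes Col4a1 and Col4a2 lie head to head on chromosome 8, overlap by 22 bases, and share those 22 exonic bases, and Col4a4 and Col4a3 on chromosome 1 lie head to head 71 bases apart, at means of 0.218 and 0.129 FPKM. The ratio of Col6a1 to Col6a2, which lie on the same strand 85161 bases apart, ranged from 1.71 to 2.14. Col5a1 over Col5a2 was 0.623 ± 0.0397 in Old SNI, 0.689 ± 0.0778 in Old Sham and 0.689 ± 0.0581 in Young Sham libraries, and only Old SNI and Young Sham did not overlap (exact permutation p = 0.1). Between chains of different molecules both aged groups stood apart from Young Sham, while Old SNI and Old Sham overlapped. Col3a1 over Col1a1 was 0.9496 ± 0.114 in Old SNI, 0.912 ± 0.0794 in Old Sham and 1.24 ± 0.107 in Young Sham libraries (SD, n = 3 each). Col18a1 over Col15a1 was 1.60 ± 0.189 in Old SNI, 1.42 ± 0.0530 in Old Sham and 0.735 ± 0.0542 in Young Sham libraries, so that the more abundant multiplexin was Col18a1 in each aged library and Col15a1 in each young one. For both ratios, each aged group against Young Sham gave an exact two-sided permutation p of 0.1, the smallest possible with 3 against 3 libraries, and 0.3 after adjustment over 27 such tests of ratios and sums.

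**Figure D4:**
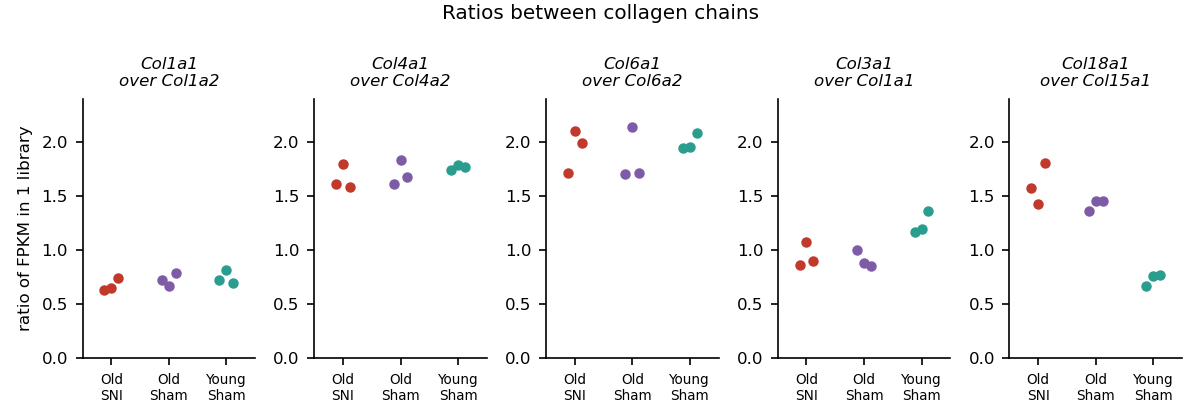
Ratio of the FPKM of a pair of collagen chains within each library, with 3 libraries per group. The first 3 panels hold chains of 1 molecule, where the groups overlap, and in the last 2 each aged library is below (Col3a1 over Col1a1) or above (Col18a1 over Col15a1) every Young Sham library.

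The genes that make, trim, bind and sense collagen were described by lists of known roles. Of 22 genes for synthesis and secretion, limma called 0 between Old Sham and Young Sham, and 7 had an unadjusted p under 0.05, 4 higher and 3 lower, which is 31.8% against 26.3% of all genes. The nearest was Crtap, a partner of a prolyl hydroxylase, with a log2 change of 0.30 (limma adjusted p = 0.0576). Mia3, which loads procollagen into carriers at the exit of the endoplasmic reticulum, was the 1 that rose in Old SNI over Old Sham, at 31.1, 30.4 and 30.7 FPKM in Old SNI and 21.6, 22.5 and 25.9 FPKM in Old Sham libraries (log2 change 0.40, limma adjusted p = 0.0178). Of all genes, 2.45% were called higher in that comparison. Against Young Sham, Old SNI ganglia had 4 of the 22 genes higher and 1 lower, while 8.20% of all genes were called higher and 4.89% lower. Mia3, the prolyl hydroxylase subunits P4ha2 and P4hb and the lysyl hydroxylase gene Plod3 rose, by 0.43, 0.60, 0.25 and 0.38 on the log2 scale. P4ha2, P4hb and Plod3 each kept the call in 4 of the 9 leave-one-out runs and Mia3 in 9, and the call of Mia3 over Old Sham was kept in 5. Sparc, a collagen-binding glycoprotein, fell to 217, 226 and 265 FPKM in Old SNI libraries, against 375, 299 and 360 FPKM in Young Sham libraries (log2 change -0.55, limma adjusted p = 0.0148).

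Of 12 tested genes for crosslinking and procollagen processing, 0 rose and 2 fell in Old Sham against Young Sham. Of all genes, 2.53% were called higher and 1.49% lower there. At an unadjusted p under 0.05 there were 4 of the 12, 33.3% against 26.3% of all genes. Lox, the lysyl oxidase that starts collagen crosslinks, was at 2.73, 3.224 and 2.08 FPKM in Old Sham libraries, against 9.45, 7.56 and 6.87 FPKM in Young Sham libraries. It fell 2.92-fold, more than any of the 34 chains (log2 change -1.54, limma adjusted p = 0.0112), and was called in 7 of the 9 fits with 1 library left out. Adamts3, which cleaves amino propeptides of procollagen, fell by 0.82 on the log2 scale (limma adjusted p = 0.0439) and was called in none of these 9. In Old SNI against Old Sham none of the 12 was called by limma and 2 had an unadjusted p under 0.05, Lox and Bmp1 (16.7% against 19.8% of all genes), with Lox at 3.98, 4.03 and 5.65 FPKM in Old SNI libraries (log2 change 0.75, limma adjusted p = 0.0658). In Old SNI against Young Sham, 2 rose and 2 fell, while 8.20% of all genes were called higher and 4.89% lower. Of the 12, 6 had an unadjusted p under 0.05, 2 higher and 4 lower, against 29.4% of all genes. Bmp1, the proteinase for carboxy propeptides, and its enhancer Pcolce rose by 0.57 and 0.66, and Lox and the Bmp1 relative Tll1 fell by 0.80 and 0.86 on the log2 scale.

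Of 14 tested collagen receptors and related adhesion genes, 1 rose in Old Sham over Young Sham, 2 in Old SNI over Old Sham and 4 in Old SNI over Young Sham, and limma called none lower. Of all genes, 2.53%, 2.45% and 8.20% were called higher in these comparisons, and 1.49%, 1.65% and 4.89% lower. At an unadjusted p under 0.05 there were 4, 6 and 5 of the 14, or 28.6%, 42.9% and 35.7%. The shares of all genes were 26.3%, 19.8% and 29.4%. Among these receptors, 1 was lower in Old Sham against Young Sham and the rest were higher. Adgrg1, an adhesion G protein-coupled receptor that binds type III collagen in the mouse brain, was at 44.3, 43.4 and 48.3 FPKM in Old Sham and 33.8, 37.9 and 31.0 FPKM in Young Sham libraries (log2 change 0.41, limma adjusted p = 0.0361; called in 1 of the 9 fits with 1 library left out). Itgb1, the common beta subunit of the collagen-binding integrins, was at 131, 128 and 135 FPKM in Old SNI and 98.4, 99.02 and 96.5 FPKM in Old Sham libraries. It rose 1.34-fold (log2 change 0.42, SE 0.0468, limma adjusted p = 0.00445). Cd44, a receptor mainly of hyaluronan, rose 1.69-fold over Old Sham (log2 change 0.76, limma adjusted p = 0.00529). Both were called in all 9 fits with 1 library left out. Itga3, whose integrin mainly binds laminins, rose in Old SNI over Young Sham (log2 change 0.69, limma adjusted p = 0.00724), beside Adgrg1, Cd44 and Itgb1.

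Among 20 tested proteoglycans and fibril regulators, 1 rose and 2 fell in Old Sham against Young Sham. The shares of all genes called there were 2.53% higher and 1.49% lower. Of the 20, 10 had an unadjusted p under 0.05, 4 higher and 6 lower, against 26.3% of all genes. Chad, a leucine-rich protein that binds collagen, was at 0.509, 0.213 and 0.324 FPKM in Old Sham and 1.08, 1.05 and 1.07 FPKM in Young Sham libraries (log2 change -1.43, limma adjusted p = 0.0341). Omd, a keratan sulfate proteoglycan of the same family of small leucine-rich proteins, fell by 1.09 and Ecm1, a secreted matrix glycoprotein, rose by 0.70 on the log2 scale. In Old SNI against Old Sham 0 of the 20 were called by limma and 3 had an unadjusted p under 0.05 (15.0% against 19.8% of all genes). In Old SNI against Young Sham, Ecm1 rose and Chad fell, while 8.20% of all genes were called higher and 4.89% lower. There, 6 of the 20 had an unadjusted p under 0.05, 30.0% against 29.4% of all genes. Of 15 growth factor, receptor and target genes that drive matrix production, Tgfb1 was the 1 that rose in Old Sham over Young Sham, at 2.73, 3.86 and 3.49 FPKM in Old Sham and 1.51, 1.70 and 2.07 FPKM in Young Sham libraries (log2 change 0.89, limma adjusted p = 0.0422). At an unadjusted p under 0.05 there were 3 of the 15, 20.0% against 26.3% of all genes. The sum of 7 macrophage markers, 2 of them called higher, was 38.6 to 65.9 FPKM in Old Sham and 25.5 to 28.5 FPKM in Young Sham libraries, and the part of these cells in the rise of Tgfb1 was not tested. Chad, Tgfb1, Omd and Ecm1 kept their calls in 2, 2, 1 and 1 of the 9 leave-one-out runs. Against Young Sham, Tgfb1 and the receptor gene Tgfbr2 rose and Tgfb3 fell in Old SNI ganglia, by 0.86, 0.58 and 0.32 on the log2 scale. In that comparison 4 of the 15 had an unadjusted p under 0.05, 26.7% against 29.4% of all genes.

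**Figure D5:**
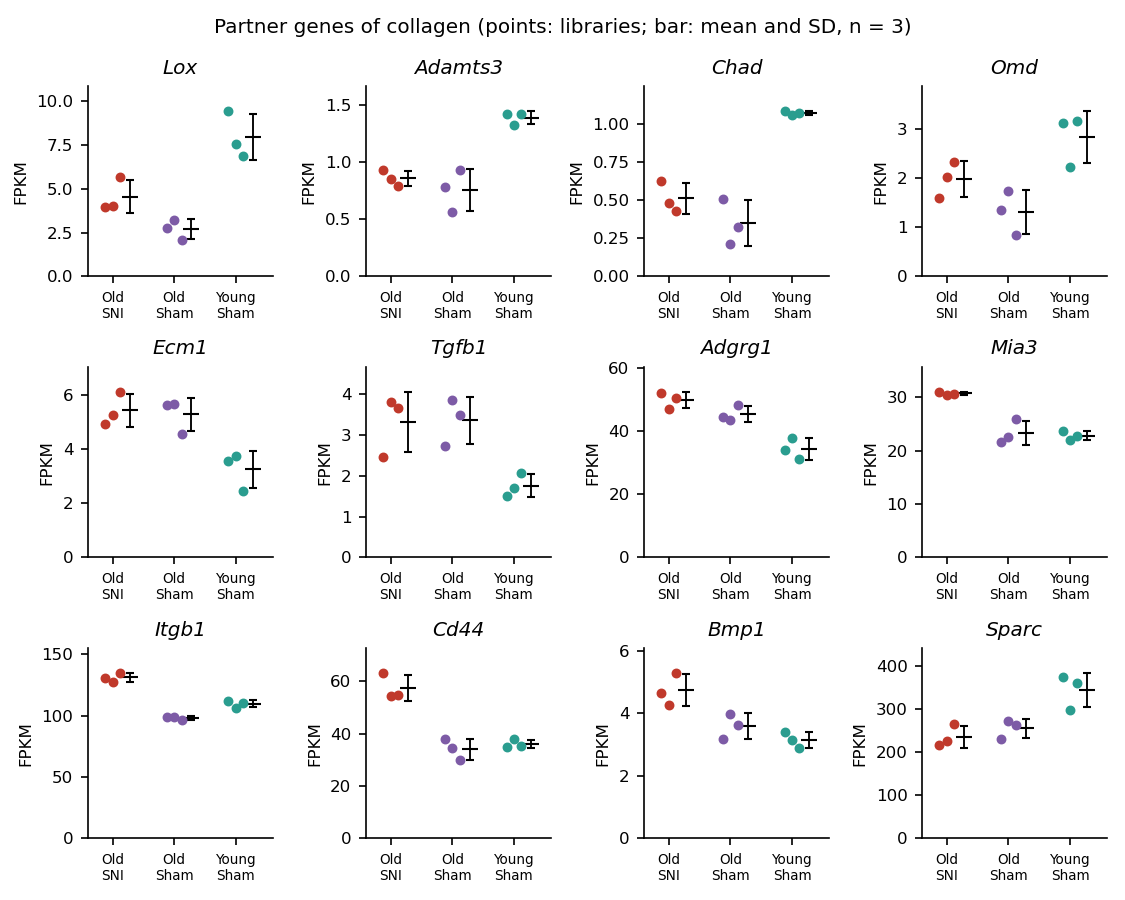
FPKM of 12 partner genes of collagen called in at least 1 comparison, with 1 point per library and the mean and SD (n = 3) beside each group. Lox, Adamts3, Chad and Omd are lower in Old Sham than in Young Sham libraries, and Mia3, Itgb1 and Cd44 are higher in Old SNI than in Old Sham libraries.

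The start regions of 35 of the chains matched 38 windows among 32851 RefSeq promoters (GRCm38.p6), and the 250 bases before the start were searched for 5 motifs on both strands, none of which contains another. The GC box GGGCGG, read as CCGCCC on the other strand, was in 22 of the 38, 57.9% against 32.7% of all promoters, and the median G or C content was 59.0% in the windows of the family and 52.4% in all promoters. TATAAA, read as TTTATA on the other strand, was in 13.2% against 12.4%, CCAAT, read as ATTGG on the other strand, in 34.2% against 33.85%, CAGAC, read as GTCTG on the other strand, the letters that SMAD proteins bind, in 44.7% against 42.2%, and ACAAAG, read as CTTTGT on the other strand, the letters of a Sox motif, in 10.5% against 16.5%. The window of Col15a1, which fell in Old SNI against Young Sham, held none of the 5 motifs and no annotated exon, and is not printed. Those of 3 other chains that fell in that comparison, also free of annotated exons, are printed from RefSeq with matches in capitals.
Col28a1, chr6:8192618-8192867 (minus strand): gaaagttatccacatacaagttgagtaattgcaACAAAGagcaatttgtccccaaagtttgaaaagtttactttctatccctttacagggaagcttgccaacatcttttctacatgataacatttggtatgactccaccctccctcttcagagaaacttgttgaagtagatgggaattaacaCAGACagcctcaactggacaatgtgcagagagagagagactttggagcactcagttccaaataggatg
Col3a1, chr1:45311288-45311537 (plus strand): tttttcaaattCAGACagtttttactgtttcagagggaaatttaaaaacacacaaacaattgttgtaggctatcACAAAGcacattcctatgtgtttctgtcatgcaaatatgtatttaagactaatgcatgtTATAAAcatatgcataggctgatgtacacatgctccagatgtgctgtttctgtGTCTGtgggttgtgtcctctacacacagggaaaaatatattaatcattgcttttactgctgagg
Col11a1, chr3:114030290-114030539 (plus strand): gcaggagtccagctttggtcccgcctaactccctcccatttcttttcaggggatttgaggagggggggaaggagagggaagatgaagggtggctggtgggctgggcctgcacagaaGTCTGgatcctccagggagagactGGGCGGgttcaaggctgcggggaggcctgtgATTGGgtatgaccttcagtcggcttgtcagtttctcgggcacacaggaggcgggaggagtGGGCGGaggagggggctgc
The windows of Col28a1 and Col3a1 had 40.4% and 35.2% G or C, below the median of the family, and held no GC box, and both held CAGAC and ACAAAG. Col3a1 also held TATAAA. That of Col11a1 had 62.4% G or C, with GC boxes, a CCAAT box and CAGAC. A match describes these letters and is no evidence of binding.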

How the data were processed

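Values for 45904 identifiers in 9 libraries were deposited by the authors as FPKM, per the file headers. Per the submitters' processing notes, mm10 was the build and the tools included HTSeq 0.6.0, TopHat2 2.0.12 with Bowtie2 2.2.3, limma 3.22.7, SAMtools 0.1.19 and edgeR 3.8.6. Their roles, the annotation and strand handling were not given in the sources used here. Symbols and positions came from GENCODE M21.

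The 17601 genes averaging at least 0.2 FPKM were fitted jointly over the 9 libraries on log2(FPKM + 0.1), using limma 3.58.1 (R 4.3.3) and a variance trend. Tests were two-sided, with Benjamini-Hochberg adjustment over all genes tested and calls at 0.05. The p-values measure the spread between pools of 2 mice. Named were called chains, the 15 most abundant, the smallest p of each class, and partner genes called or among the 3 smallest p of a list; other chains were chosen after their values were seen. Members, ratios and lists were chosen with earlier results of these data known. FPKM steps gave whole reads (within 0.001) for 99.6% of tested genes and all 34 chains, and a relative depth of 0.846 to 1.23. These reads, a voom alternative chosen after seeing the data, are known up to a factor per gene. The test was checked on simulated data with independent noise for each gene and library. That check does not cover shifts of many chains at once within a library, as seen here. Some genes of the marker and partner lists are not reported here.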

Additional observations from a re-analysis of the deposited data

How the results depend on the processing

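No named gene with a call turned its direction under any of the alternatives, while uncalled changes near 0 in Old SNI against Old Sham did, among them those of Col28a1, Col3a1, Col11a1 and Col4a1. The count of chains called in Old Sham against Young Sham, 3 in the report, was 1 without a filter, 7 with equal medians (1 higher, 6 lower), 6 after quantile normalization (1 higher, 5 lower), 0 with only these 2 groups, 8 with array weights (2 higher, 6 lower), 1 without the variance trend and 7 with voom, an alternative chosen after seeing the data, and 0 to 2 with 1 library left out: 0 on leaving out Old SNI replicate 3, Old Sham replicates 2 or 3 or Young Sham replicates 1 or 3. Over all genes, 445 were higher and 262 lower in Old Sham against Young Sham, and 281 and 536 with equal medians. With equal medians Adgrg1 and Ecm1 were no longer called there, nor were Plod3, P4hb and Itgb1 in Old SNI against Young Sham (limma adjusted p = 0.0612, 0.0514, 0.0646, 0.107 and 0.0704). The count of chains stayed at 3 with pseudocounts of 0.01 and 1 and a filter at 1 FPKM, there with Col3a1 in place of the untested Col26a1. In Old SNI against Old Sham it was 0 under all alternatives except without Old Sham replicate 1, where it was 2 (range 0 to 2). In Old SNI against Young Sham it was 6 to 9 under the alternatives that keep all libraries and 2 to 9 with 1 library left out: the omission of Young Sham replicate 1 gave 2, of Young Sham replicate 3 gave 3 and of Old SNI replicate 1 gave 4. With the replicate number as a block, 1 chain was called in Old Sham against Young Sham, 0 in Old SNI against Old Sham and 6 in Old SNI against Young Sham. Libraries of the same number correlated at -0.07 to -0.03, 0.06 to 0.27 and -0.05 to -0.02 in their deviations in the 3 comparisons, with 6 of 6 best with their own number only between Old SNI and Old Sham. The main fit did not use the numbers as pairs, also in Old SNI against Old Sham, where libraries of 1 number went together. The causes of these shifts were not tested, beyond the fewer samples or other genes tested that an alternative has by construction.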

Other observations

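Some low chains, chosen after their values were seen, were apart between groups without a call. Col20a1, a FACIT chain, was at 0.517, 0.470 and 0.440 FPKM in Old SNI, 0.519, 0.385 and 0.445 FPKM in Old Sham and 0.253, 0.345 and 0.278 FPKM in Young Sham libraries, higher in all 6 aged libraries than in any young one (limma adjusted p = 0.158 for Old SNI and 0.230 for Old Sham against Young Sham). Col2a1, the chain of the main collagen of cartilage, was at 0.309, 0.195 and 0.227 FPKM in Old SNI, 0.337, 0.493 and 0.349 FPKM in Old Sham and 0.202, 0.161 and 0.239 FPKM in Young Sham libraries, so that the Old Sham libraries stood above both other groups (limma adjusted p = 0.187 against Young Sham). Skeletal muscle markers summed to 3.08 to 32.9 FPKM in Old SNI, 12.4 to 226 FPKM in Old Sham and 36.1 to 335 FPKM in Young Sham libraries.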
